A study of Mus musculus with 14 samples.

Results

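RNA from macrophages sorted out of wild-type (WT) Lewis lung carcinoma (LLC) tumors was compared with RNA from pieces of whole WT LLC tumors, over all genes, to find which transcripts the sort enriched and which it depleted. The libraries were taken by their labels, 4 of sorted cells and 3 of whole tumor, 7 of the 14 libraries in the series. LLC is a mouse lung carcinoma line, here grown for 14 days in the flanks of C57BL/6 mice. A whole tumor library was made from 30 mg of tissue. A sorted library was made from 1000000 CD11b+Gr1- cells collected by flow cytometry from a suspension of tumor cells, and the labels call these cells tumor-associated macrophages (TAM). The other 7 libraries are the same kinds of sample from p110g-/- mice of the same strain, which lack the PI3K gamma catalytic subunit, and they enter only where they are named. The labels give neither the age nor the sex of the mice and do not tie libraries to single animals, so the spread between them may be technical.

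Macrophages in tumors arise mainly from blood monocytes, which are drawn in through receptors such as Ccr2 and mature under the growth factor Csf1, whose receptor is Csf1r. They take up debris through scavenger, complement and Fc receptors, digest it in lysosomes, present peptides on MHC molecules and secrete cytokines, chemokines and enzymes. A whole tumor holds these cells together with carcinoma cells, fibroblasts, vessels and other leukocytes. Its RNA therefore includes that of its macrophages, and a whole tumor is not a macrophage-free control. In such bulk samples, fewer cells of a type and less RNA per cell cannot be told apart.

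The deposited values are normalized counts, and each library was rescaled to a total of 1000000 (CPM). The depth estimated from the spacing of the values was 26834781 to 40726064 reads in genes for the TAM and 41517867 to 44600502 for the tumors. The 3 tumor libraries were alike, with correlations across genes of 0.993 to 0.996 on the log2 scale. The TAM libraries were less so: numbers 3 and 4 correlated at 0.997, but number 1 correlated at only 0.941 with number 3 and 0.936 with number 4. Mitochondrial genes held 2.51%, 3.06%, 7.70% and 9.59% of TAM libraries 1 to 4 and 3.02% to 3.32% of the tumors. TAM 1 was also the TAM library least like the tumors, at 0.750 to 0.774, whereas TAM 4 correlated with them at 0.886 to 0.901. The median level of the genes called lower in TAM, defined below, was 12.0% of the tumor mean in TAM 1, 23.0% in TAM 2, 36.3% in TAM 3 and 36.5% in TAM 4.

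Protein-coding genes of the Y chromosome differed between the kinds of sample as no macrophage marker did. Ddx3y, which encodes an RNA helicase, stood at 93.5, 73.6, 56.8 and 54.2 CPM in TAM 1 to 4 and at 0.220, 0.147 and 0.109 CPM in the tumors. Eif2s3y, a translation initiation factor gene, stood at 62.5, 64.2, 48.4 and 43.4 CPM in TAM and 0.0367, 0.0367 and 0.109 CPM in the tumors, where 3 reads correspond to 0.0673 to 0.0723 CPM. Uty and Kdm5d, which encode histone demethylase family members, followed the same pattern, with 16.4 to 25.3 against 0.109 to 0.220 CPM and 23.2 to 43.2 against 1.49 to 1.83 CPM. The mean tumor level of these 4 genes was 0.111% to 5.06% of the TAM mean (median 0.559%), whereas that of the 23 macrophage markers was 9.04% to 89.3% (median 18.8%). The same 4 genes were also higher in TAM among the p110g-/- libraries, with log2 differences of 6.90, 6.91, 4.78 and 3.69. The sexes of the mice are not given, and what part the source animals or the sort played in these genes was not tested. It was also not tested whether other genes are touched.

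A gene was called higher in TAM when all 4 TAM libraries lay above all 3 tumors in CPM and the mean of log2(CPM + 0.5) differed by at least 1, that is 2-fold; lower was defined likewise. No significance test stands behind a call, because TAM and tumors were deposited in separate tables and how they were normalized is not stated. Of 12599 genes that reached 0.5 CPM in at least 3 of the 7 libraries, 1531 (12.2%) were higher and 2648 (21%) lower, so 33.2% were called. At least 8-fold differences were found for 68 higher and 308 lower genes. The log2 difference over all considered genes had a median of −0.24, and the medians given below for lists are read against it. That offset depends on the scaling. With library totals, 36.6% of the calls were higher and 63.4% lower, whereas median-of-ratios size factors gave 48.1% and 51.9%, trimmed mean (TMM) factors 50.5% and 49.5%, and the deposited values as they stand 51.6% and 48.4%, with medians over all genes of −0.02, 0.02 and 0.05. No gene was called in the opposite direction by these scalings. A limma fit across the 7 libraries, added after the values had been seen, gave adjusted p-values under 0.05 to 98.9% of the called genes, in a comparison where 70% of all genes had them. The calls were made on the same libraries, so this share lends them no support, and the fit has the same limit of unstated normalization.

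**Figure D1:**
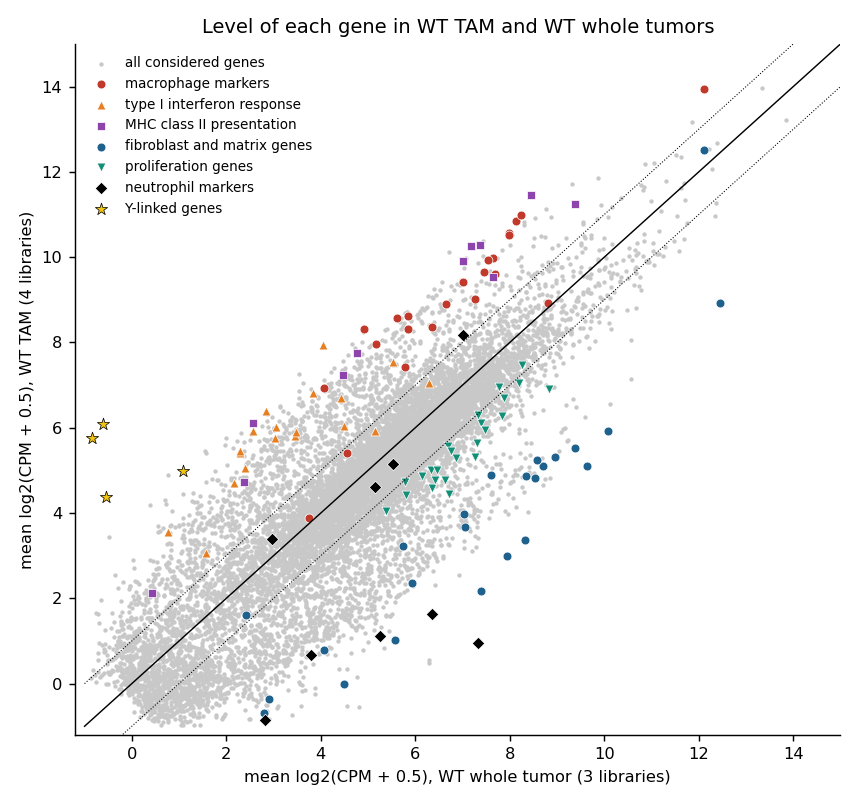
Mean log2(CPM + 0.5) of each considered gene in the 3 WT whole tumors (x axis) and the 4 WT TAM libraries (y axis). Grey points are all 12599 genes, coloured symbols are members of 6 gene lists and the 4 Y-linked genes, the solid line marks equal levels and the dotted lines mark 2-fold differences. Macrophage, MHC class II and interferon genes lie mostly above the upper dotted line, and matrix, neutrophil and proliferation genes mostly below the lower one.

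The sort label was first checked against the sort antigens and macrophage markers. Itgam, which encodes CD11b, stood at 2804, 2269.7, 1618 and 1377 CPM in TAM 1 to 4 and 341, 379.7 and 393 CPM in the tumors, 5.43-fold higher by the ratio of means (log2 difference 2.39, SE 0.24). The Gr1 antibody binds Ly6g and Ly6c proteins. Ly6g is not analysed here; Ly6c1, which endothelium also expresses, was lower at 1.34, 3.26, 9.47 and 11.6 against 35.6, 45.4 and 44.5 CPM, and Ly6c2 had no call at 41.2, 14.2, 11.9 and 14.2 against 8.29, 8.88 and 10.9 CPM. Ly6c2 was above every tumor in all 4 TAM libraries and was called higher under each of the other 3 scalings. TAM 1 thus held the highest level of the monocyte gene Ly6c2 and the lowest level of Ly6c1. Of 23 macrophage markers, 20 were higher and none lower, with a median log2 difference of 2.39.

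Csf1r, the receptor through which Csf1 sustains macrophages, stood at 1462, 1868, 1348 and 1270.2 CPM in TAM against 229, 283 and 252 CPM in the tumors (5.84-fold higher). Adgre1, which encodes the F4/80 antigen, stood at 229, 461, 320.3 and 338 against 73.1, 84.9 and 85.8 CPM, and unlike Itgam it was lowest in TAM 1. Fcgr1, the high-affinity IgG receptor, had the largest difference of the list, with 484, 299, 261 and 273 against 25.8, 28.7 and 34.7 CPM (11.1-fold higher). The groups did not overlap for any of these 3 genes. C1qa, C1qb and C1qc, the 3 chains of complement C1q, were 6.51-fold, 6.68-fold and 5.95-fold higher, with TAM libraries at 1706 to 2060.2, 1854 to 2211 and 1336 to 1814 CPM. Lyz2, the macrophage lysozyme, reached 14105 to 19288 CPM in TAM against 4157 to 4755 CPM in the tumors. The 3 markers without a call were Mertk, an efferocytosis receptor (log2 difference 0.86, SE 0.12), the LPS co-receptor Cd14 (0.12, SE 0.29) and the haemoglobin scavenger receptor Cd163 (0.15, SE 0.77). Mertk did not overlap between the groups but missed 2-fold, which it passed under the other 3 scalings, whereas Cd14 and Cd163 overlapped.

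Of 19 transcription factors of the macrophage lineage, 14 were higher and none lower (median 1.72). Spi1, which encodes PU.1, the master regulator of myeloid fate, was steady over TAM libraries at 421, 462, 415 and 421 CPM against 59.3, 76.3 and 70.4 CPM in the tumors. Nr1h3, the oxysterol receptor LXR alpha, stood at 48.9, 59.4, 68.5 and 81.3 against 6.34, 7.81 and 8.52 CPM and had the largest difference of the list (8.54-fold). Irf8 and Irf5, of the interferon regulatory factor family, were 6.04-fold and 6.29-fold higher. Runx1, Id2, Cebpb, Bhlhe40 and Bhlhe41, which many other cells express too, had no call, with log2 differences from −0.20 to 0.70.

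Monocyte and dendritic cell genes were mixed. Ccr2, the receptor for monocyte chemoattractants, was among the genes with the largest differences, at 1842, 1079.5, 934 and 855 CPM in TAM against 72.3, 107 and 150.3 CPM in the tumors (10.7-fold higher). Of the 10 monocyte markers, only Ccr2, Ifitm6 and F13a1 were higher, and none was lower. F13a1, a coagulation factor gene, had a log2 difference of 1.01 (SE 0.44) and lost the call without TAM 1, TAM 2 or tumor 1. Ifitm6 stood at 42.9, 11.9, 11.97 and 9.72 against 3.56, 4.37 and 4.39 CPM, and its mean rests largely on TAM 1. Chil3, which encodes a chitinase-like protein, stood at 40.9, 7.75, 3.13 and 3.42 CPM in TAM against 23.6, 16.5 and 68.1 CPM in the tumors. TAM 1 was above at least 1 tumor, and the other 3 TAM libraries were below every tumor. Without TAM 1 Chil3 was called lower, and the list held 2 higher and 4 lower genes. Among 13 dendritic cell genes, 6 were higher and 1 lower (median 0.86). Itgax, which encodes CD11c and is also expressed by macrophages, was 3.50-fold higher; Clec9a, a receptor of conventional dendritic cells, was lower at 1.25, 1.74, 3.31 and 4.09 against 17.9, 16.99 and 19.3 CPM. Xcr1 and Flt3, defining genes of dendritic cells, stood at 0.782 to 1.40 and 3.95 to 6.52 CPM in TAM and had no call.

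Type I interferons are antiviral cytokines that act through a cell surface receptor to switch on a set of effector genes in nearly all cells, macrophages included. Among the 20 largest positive differences in genes of at least 20 CPM in TAM, 4 were the Y-linked genes. The others included Irf7, the interferon regulatory factor that amplifies type I interferon production, Oas1g and Oas2 of the antiviral oligoadenylate synthetase family, the immunity-related GTPase genes Tgtp2 and Ifi47, and Pyhin1 of the interferon-inducible p200 family. Irf7 stood at 342, 269, 187 and 216 CPM in TAM against 13.3, 15.6 and 20.1 CPM in the tumors (15.5-fold higher, log2 difference 3.89, SE 0.25). Oas2 stood at 149, 75.8, 64.2 and 67.6 against 5.79, 6.71 and 7.76 CPM, and Tgtp2 at 70.7, 44.04, 30.1 and 37.7 against 1.80, 2.13 and 3.62 CPM. All 3 genes were highest in TAM 1 and lowest in TAM 3, and the lowest TAM library was still far above the highest tumor. How reads shared by near-identical members of these families were counted is not stated, so values of single Oas1, Tgtp, Ifi and Ms4a4 genes are uncertain.

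On the type I interferon response list, 17 of 19 genes were higher and none lower, with a median log2 difference of 2.66. The summed level of the list was 1114 to 2057 CPM in the TAM libraries and 281 to 337 CPM in the tumors. Ifit1 and Ifit3, which bind viral RNA or assemble with proteins that do, stood at 64.5, 47.5, 29.6 and 33.8 and 88.3, 72.7, 42.7 and 47.1 CPM in TAM 1 to 4, against 4.14, 3.999 and 5.22 and 4.58, 5.03 and 6.96 CPM in the tumors. Isg15, a ubiquitin-like modifier, was 5.67-fold higher. Usp18, which restrains the interferon receptor, had a log2 difference of 2.66 (SE 0.22). The genes without a call were Bst2, which encodes tetherin (134, 129.9, 122 and 142 against 74.1, 70.8 and 90.6 CPM), and Ddx58, which encodes the RNA sensor RIG-I (77.1, 70.98, 47.1 and 52.00 against 35.3, 35.1 and 34.00 CPM). Both were above every tumor in all 4 TAM libraries but by less than 2-fold. Ddx58 passed 2-fold under the other 3 scalings and Bst2 under 2 of them.

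The promoters of these genes are shown because interferon acts on them through a known element, the interferon-stimulated response element (ISRE). RefSeq sequence (build GRCm38.p6; the deposited values were made on mm9) was available for 15 of the 19 genes, and the 250 bases before the gene start were searched on both strands for the core of that element, written as GAAA, any 2 bases, then GAAA. It was found in 7 of the 15 (46.7%), against 3.38% of 9993 considered genes and 2.98% of all 32851 promoters in the table. Among all genes called higher 8% held it, and among those called lower 2.88%. The sequences below run from 5′ to 3′ on the strand of the gene and end at the base before its start, with every match in capitals, so that adjoining and overlapping matches form a single run. They belong to Ifit1 (chr19:34640639-34640888, plus strand), Isg15 (chr4:156200819-156201068, minus strand) and Oas1a (chr5:120907526-120907775, minus strand).
Ifit1: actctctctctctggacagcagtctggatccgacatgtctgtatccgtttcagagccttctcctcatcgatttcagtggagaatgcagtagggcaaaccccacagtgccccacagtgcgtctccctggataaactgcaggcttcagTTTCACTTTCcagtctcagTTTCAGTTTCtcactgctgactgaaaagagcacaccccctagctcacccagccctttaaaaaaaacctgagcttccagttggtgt
Isg15: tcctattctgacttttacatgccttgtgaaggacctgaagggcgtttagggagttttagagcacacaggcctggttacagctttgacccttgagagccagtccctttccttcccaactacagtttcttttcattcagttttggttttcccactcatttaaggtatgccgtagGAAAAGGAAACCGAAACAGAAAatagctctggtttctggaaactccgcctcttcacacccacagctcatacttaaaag
Oas1a: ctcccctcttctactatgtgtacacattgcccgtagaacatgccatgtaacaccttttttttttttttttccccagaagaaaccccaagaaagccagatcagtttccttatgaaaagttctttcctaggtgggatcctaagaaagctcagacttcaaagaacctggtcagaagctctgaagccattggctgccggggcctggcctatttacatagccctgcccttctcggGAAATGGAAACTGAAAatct
Ifit1 holds 2 separate matches, which read as the reverse complement, Isg15 holds 3 overlapping matches, and Oas1a 2 overlapping matches that end 4 bases before the sequence does. Bst2, which had no call, also holds 2 matches. For comparison, the C1qc promoter (chr4:136892915-136893164, minus strand) holds no such match but carries the PU box GAGGAAGT, a form of the site that PU.1 binds, on the opposite strand.
C1qc: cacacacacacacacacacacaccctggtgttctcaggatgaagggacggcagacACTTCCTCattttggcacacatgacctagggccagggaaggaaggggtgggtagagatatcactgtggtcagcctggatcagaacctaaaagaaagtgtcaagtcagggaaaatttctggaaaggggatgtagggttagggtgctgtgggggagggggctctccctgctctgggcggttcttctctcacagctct
The PU box was found in 6.44% of genes called higher, 2.43% of genes called lower and 3.14% of considered genes (2.44% of all promoters). It was in 1 of 14 macrophage markers with a promoter and in none of the 15 interferon genes. Neither motif overlapped the other in the promoters shown. A match is a description of letters, not evidence of binding in these cells.

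**Figure D2:**
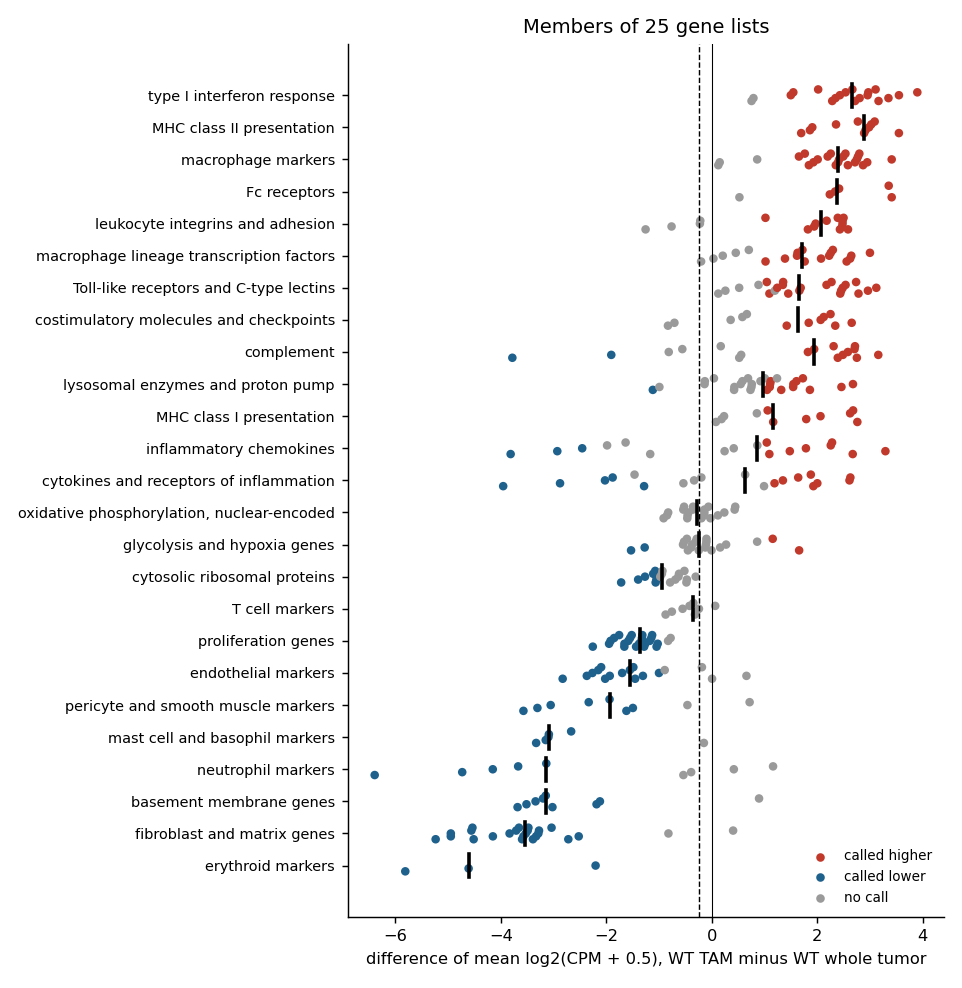
Difference of mean log2(CPM + 0.5), WT TAM minus WT whole tumor (x axis), for each considered member of 25 gene lists (y axis); every point is a gene, coloured by its call, and short vertical bars are list medians. The dashed line is the median over all considered genes (−0.24), on the negative side of the solid line at 0. Lists of macrophage function lie to the right of it, with medians up to 2.89, and stromal and erythroid lists to the left, with medians down to −4.61.

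MHC class II presentation was the list with the highest median (2.89), and all 11 of its genes were higher. Ciita, the transactivator that switches on class II genes, stood at 61.2, 90.9, 63.2 and 62.9 CPM in TAM against 2.64, 5.80 and 9.97 CPM in the tumors (11.3-fold higher). H2-Aa, which encodes a class II alpha chain, stood at 1006, 1399, 1233 and 1380.4 against 89.7, 149.5 and 333 CPM. The invariant chain gene Cd74 stood at 2426, 3352, 2648 and 2980.0 against 191, 318 and 696 CPM. The tumors differed among themselves here: tumor 3 held 3.71 times the H2-Aa level of tumor 1, and the list's summed level was 9306 to 11294 CPM in TAM and 1193 to 2808 CPM in the tumors. In contrast to Irf7, Oas2 and Tgtp2, H2-Aa and Cd74 were lowest in TAM 1. For class I presentation, 7 of 11 genes were higher and none lower (median 1.16). They were the immunoproteasome subunits Psmb8 (6.21-fold), Psmb9 (7.02-fold) and Psmb10, the peptide transporter Tap1 (207, 212, 141 and 167 against 24.3, 26.05 and 33.2 CPM), the class I transactivator Nlrc5, the heavy chain H2-K1 (3.47-fold) and B2m (2.10-fold), whose call was lost without TAM 1. The members Calr and Erap1, a chaperone and a peptide trimming enzyme, had log2 differences of 0.18 and 0.08. Of 12 costimulatory and checkpoint genes, 7 were higher and none lower (median 1.63). Cd86 and Cd80, the ligands of CD28, were 4.92-fold and 3.87-fold higher, and Cd40, which receives help from T cells, stood at 33.7, 38.9, 35.9 and 42.8 against 8.10, 8.07 and 9.86 CPM. Cd274, which encodes PD-L1, stood at 130.4, 59.8, 52.4 and 44.2 against 30.8, 48.3 and 46.3 CPM; TAM 4 lay below 2 of the tumors, so there was no call.

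Most Fc, Toll-like and C-type lectin receptor genes were higher, whereas scavenger receptors were divided. Of 6 Fc receptor genes, 5 were higher (median 2.37). Fcgr4, an activating IgG receptor gene, stood at 134, 83.7, 71.6 and 77.6 against 6.31, 8.81 and 10.1 CPM, and Fcgr2b, the inhibitory receptor, at 2014, 1106, 946 and 848 against 172, 209.8 and 331 CPM. Fcgrt, the neonatal Fc receptor that recycles IgG in many cells, had no call (0.52, SE 0.20). Of 17 complement genes, 10 were higher and 2 lower (median 1.94). The receptors C3ar1 and C5ar1 were 6.62-fold and 5.02-fold higher, as were properdin (Cfp, 5.57-fold) and factor B (Cfb, 8.94-fold). The 2 lower genes, Serping1 (C1 inhibitor; 0.0873, 0.0898, 0.632 and 1.09 against 9.31, 9.58 and 17.9 CPM) and Cd55, restrain complement; Cd55 reached the minimum level only in the 3 tumors, so it drops out when any of them is left out. Of 23 Toll-like receptor and C-type lectin genes, 18 were higher and none lower (median 1.66). The nucleic acid sensor Tlr9 stood at 19.4, 43.9, 24.1 and 24.7 against 2.68, 3.05 and 3.30 CPM, with its highest level in TAM 2, and the LPS receptor Tlr4 was 2.20-fold higher, a call lost without TAM 1. Clec4a2, a lectin with an inhibitory motif, varied little over libraries, with 228, 223, 222 and 227 against 38.9, 40.6 and 44.3 CPM. Of 16 leukocyte integrin and adhesion genes, 12 were higher (median 2.07), and the pan-leukocyte gene Ptprc, which encodes CD45, stood at 743, 779, 595 and 546 against 103, 129 and 125 CPM. Of the scavenger receptors, 6 of 17 were higher and 2 lower (median 0.15). Stab1, which clears modified lipoproteins and matrix fragments, was 7.57-fold higher. Cd36 stood at 107, 59.4, 52.1 and 32.1 CPM in TAM, on both sides of the tumors at 56.2 to 68.7 CPM. Marco and Vldlr were lower, at 0.177 to 0.662 and 0.262 to 0.932 CPM in TAM.

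Lysosomal and lipid genes were partly enriched. Of 28 lysosomal genes, 12 were higher and 1 lower (median 0.96). The cysteine proteases Ctsh and Ctsc were 6.36-fold and 5.52-fold higher. Ctsl, another cathepsin, was below the tumors in every TAM library, at 1361, 769.9, 913 and 870.3 against 2114, 1804 and 1808 CPM, with a log2 difference of −0.99 that just missed the size required and passed it without TAM 1, tumor 2 or tumor 3. Atp6v0d2, a proton pump subunit, stood at 14.7, 92.6, 76.4 and 72.1 against 22.3, 33.8 and 14.1 CPM, with TAM 1 alone within the range of the tumors, and was called higher without TAM 1. Of 17 genes of lipid handling, 6 were higher and 3 lower (median 0.76). Apoe, the lipid carrier, stood at 2112, 1857, 1553 and 1790.0 against 245, 296 and 436 CPM, and the cholesterol exporter Abcg1 and the phospholipid transfer protein Pltp were 4.21-fold and 5.91-fold higher. Spp1, which encodes osteopontin and is made by carcinoma cells as well as macrophages, was lower, at 2134, 877, 1042 and 841 against 3802, 2727 and 2739.8 CPM. Gpnmb, a lysosomal membrane glycoprotein counted on both lists, was also lower (36.4, 21.3, 45.8 and 40.1 against 77.3, 67.9 and 82.4 CPM), as was the fatty acid carrier Fabp4, at 0.718 to 1.65 against 7.39 to 11.7 CPM. Gpnmb lost its call without TAM 2 and under the other 3 scalings. Under median-of-ratios and TMM scaling the lysosomal list held 13 and 16 higher genes.

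The inflammatory mediators held genes of both calls. Among 17 chemokines 8 were higher and 3 lower (median 0.86). Over all considered genes 12.2% were higher and 21% lower. The share of lower genes among these chemokines, and among the cytokines described below, was thus near that of all genes. Cxcl9 and Cxcl10, interferon-induced ligands of the chemokine receptor Cxcr3, were 9.52-fold and 4.88-fold higher, with Cxcl9 at 81.8, 71.8, 49.03 and 87.6 against 3.48, 7.19 and 12.2 CPM. Cxcl16 and Ccl9 were 6.47-fold and 4.90-fold higher. Ccl6 stood at 1754, 476, 471 and 419.5 against 162, 202 and 365 CPM, and the call was lost without TAM 1. The neutrophil attractant Cxcl1 was lower, at 19.4, 4.64, 11.2 and 11.6 against 127, 168 and 170.3 CPM (13.3-fold lower), as was Ccl3, at 46.7, 11.3, 12.9 and 9.46 against 64.7, 112 and 102 CPM. Cxcl12, a product of stromal cells, stood at 0.0291 to 0.943 against 4.84 to 7.76 CPM. Cxcl2, another neutrophil attractant, stood at 377, 92.95, 74.3 and 89.1 CPM in TAM and 353, 592 and 565 CPM in the tumors; only TAM 1 reached the tumors, and without it, or without tumor 1, Cxcl2 was called lower. Without TAM 1, 6 chemokines were higher and 6 lower.

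**Figure D3:**
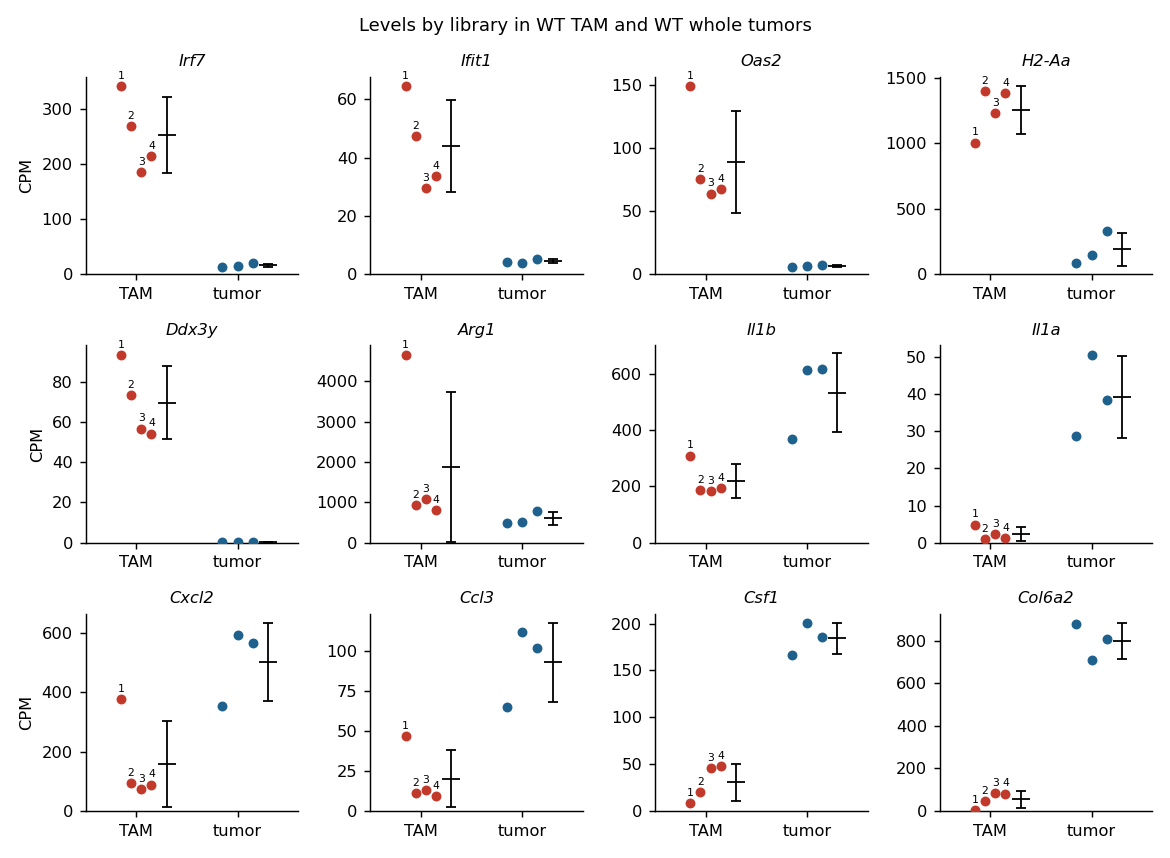
CPM (y axes, starting at 0) of 12 genes in the 4 WT TAM libraries (red, numbered) and the 3 WT whole tumors (blue), with the mean and the SD beside each group. The interferon genes Irf7, Ifit1 and Oas2 are higher in every TAM library, and Ddx3y is near 0 in the tumors. Among the TAM libraries, Arg1, Cxcl2 and Il1b are highest in TAM 1, and Csf1 and Col6a2 are lowest there. Il1b in TAM 1 still lies below every tumor.

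Among 19 cytokines and receptors of inflammation, 8 were higher and 5 lower (median 0.63). The lower genes were the cytokines Il1a, Il1b, Il6, Csf1 and Csf3. Il1b, the inflammasome-processed cytokine, stood at 309, 187, 184 and 194 CPM in TAM and 370.3, 614 and 617 CPM in the tumors. Il1a, the other IL-1, stood at 4.89, 0.988, 2.29 and 1.24 against 28.6, 50.7 and 38.4 CPM (16.7-fold lower). Csf1, the growth factor that macrophages depend on, stood at 8.01, 20.1, 45.9 and 47.8 against 167, 200.3 and 185 CPM, while its receptor was among the higher genes above. Il6 and Csf3, the neutrophil growth factor gene, stood at 0.180 to 2.10 and 0.0873 to 0.451 CPM in TAM against 2.53 to 4.84 and 1.94 to 2.61 CPM. Tnf, another macrophage cytokine, had no call, at 40.7, 24.97, 30.5 and 26.7 against 23.1, 44.9 and 40.3 CPM. The higher genes were mainly receptors, such as Csf2ra (6.24-fold), Csf2rb (3.90-fold) and Il10ra (6.30-fold), together with the cytokine genes Tgfb1 (3.14-fold) and Il18 and the IL-18 inhibitor gene Il18bp. The number of lower genes was 3 under each of the other 3 scalings, in which Il1b and Il6 lost the call; the log2 difference of Il1b was then −1.05, −1.01 and −0.98, and that of Il6 −1.86, −1.82 and −1.80.

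Genes of arginine metabolism and alternative activation had a median log2 difference of 0.33, with 4 of 18 higher and 1 lower, and without tumor 1 that median was −0.02. Arg1, which turns arginine into ornithine and is a marker of suppressive myeloid cells, stood at 4661, 933, 1086 and 806 CPM in TAM and 500.1, 507 and 795 CPM in the tumors. Every TAM library was above every tumor, but TAM 4 exceeded tumor 3 by little, and the call was lost without TAM 1. Mrc1, which encodes the mannose receptor CD206, and the folate receptor gene Folr2 were 3.14-fold and 4.12-fold higher. Nos2, which makes nitric oxide from arginine, had no call (27.7, 11.6, 13.9 and 8.81 against 21.7, 28.8 and 26.8 CPM) and was called lower without TAM 1. Odc1, which uses ornithine to make polyamines, was lower, at 69.4, 117, 192 and 209 against 387, 399 and 408 CPM. Without TAM 1, 2 genes were higher and 4 lower, and without tumor 3, 7 were higher and 1 lower.

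Of the 9 class I PI3K subunits, the 2 catalytic and 2 regulatory genes known from leukocytes were higher and 1 was lower. Pik3cg, which encodes p110 gamma, stood at 109, 134, 92.3 and 80.96 against 17.9, 22.6 and 19.1 CPM and Pik3cd, which encodes p110 delta, at 229, 190.3, 140.4 and 145 against 29.3, 37.6 and 40.2 CPM. They were 5.24-fold and 4.93-fold higher, with no overlap between the groups. The regulatory subunits of p110 gamma, Pik3r5 and Pik3r6, were 5.20-fold and 7.56-fold higher. The widely expressed catalytic genes Pik3ca and Pik3cb had log2 differences of −0.54 and 0.32 and no call, and the regulatory gene Pik3r2 was lower (48.96, 70.1, 77.1 and 83.5 against 167, 191 and 185 CPM). All of these counts were the same in every scaling and with any library left out.

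Among the 20 most negative differences were 5 collagen genes (Col1a1, Col1a2, Col5a2, Col6a1 and Col6a2), 4 haemoglobin genes (Hba-a1, Hba-a2, Hbb-bs and Hbb-bt) and the calprotectin genes S100a8 and S100a9. Of 24 fibroblast and matrix genes, 22 were lower and none higher, with a median of −3.55. The summed level of that list was 5798 to 11115 CPM in TAM and 15041 to 16713 CPM in the tumors, but in TAM most of it came from Fn1, which had no call. Col1a2 and Col1a1, the chains of type I collagen, stood at 0.611, 4.40, 4.69 and 13.7 and 1.48, 12.7, 14.9 and 27.4 CPM in TAM 1 to 4, against 123, 150.2 and 258 and 248, 279.6 and 463 CPM in the tumors (30.2-fold and 23.4-fold lower). Col6a2, a chain of type VI collagen, stood at 3.78, 45.4, 84.6 and 81.8 against 879, 710.1 and 807 CPM. In each of these genes TAM 1 was lowest by far, and the groups lay well apart. Col3a1, with 54.1, 661, 1198 and 1290.0 against 6157, 5441 and 5253 CPM, was likewise lowest in TAM 1. The other lower members included Postn, Sparc, Lox, Dcn and Pdgfra, with log2 differences of −4.56, −3.71, −4.51, −3.83 and −3.39. The members without a call were Fap, a protease of activated fibroblasts (0.990, 1.83, 4.66 and 4.24 against 6.01, 4.26 and 4.49 CPM; lower without TAM 3), and Fn1, which encodes fibronectin and is also made by macrophages. Fn1 stood at 11009, 6432, 4883 and 3456 CPM in TAM and 4293, 4100.4 and 4994 CPM in the tumors, and TAM 1 was far above the rest.

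Of 9 basement membrane genes, 8 were lower (median −3.15). Col4a1, the main collagen of basement membranes, stood at 4.42, 45.1, 102 and 101 against 520.3, 513 and 474 CPM. The summed level of this list was 2.47%, 14.4%, 28.7% and 26.9% of the tumor mean in TAM 1 to 4. What part RNA of other cells played in the levels of further genes in TAM was not tested. Of the other vessel lists, 13 of 17 endothelial markers and 7 of 9 pericyte and smooth muscle markers were lower (medians −1.55 and −1.94). Cdh5, the cadherin of endothelial junctions, stood at 2.71, 3.29, 4.15 and 3.74 against 9.57, 16.03 and 8.77 CPM, and Plvap at 0.437, 0.539, 2.44 and 2.53 against 9.39, 14.7 and 11.5 CPM. Kdr, the VEGF receptor, had no call at 7.22, 6.98, 5.86 and 4.83 against 3.19, 5.14 and 3.12 CPM, with all 4 TAM libraries above 2 of the tumors. Cspg4, which encodes NG2, was lower than every tumor in TAM 1 and higher than every tumor in TAM 2 to 4 (12.5, 104, 81.1 and 70.4 against 36.7, 37.1 and 23.5 CPM), and was called higher without TAM 1. Of the other tissue lists, 2 of 5 skeletal muscle, 1 of 4 Schwann and nerve and 1 of 1 adipocyte genes were lower, 1 skeletal muscle gene (Tnni2) was higher, and neither of 2 keratinocyte genes was called. Over all considered genes 21% were lower, and these lists are too short to set against that share.

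The 2 called keratins on the carcinoma list were lower in a graded way. Krt8 and Krt18, keratins of simple epithelia, stood at 2.21, 14.9, 47.3 and 48.5 and 2.62, 14.97, 38.6 and 39.03 CPM in TAM against 281, 290.2 and 275 and 225, 244 and 249 CPM in the tumors. The TAM libraries thus held 0.785%, 5.30%, 16.8% and 17.2% of the mean tumor level of Krt8. Cdh1, which encodes E-cadherin and is a marker of epithelia, was instead higher, at 71.4, 42.7, 35.4 and 29.7 against 5.39, 6.71 and 21.9 CPM. Krt7 and Muc1, further epithelial genes, had no call, and Epcam did not reach the level needed.

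**Figure D4:**
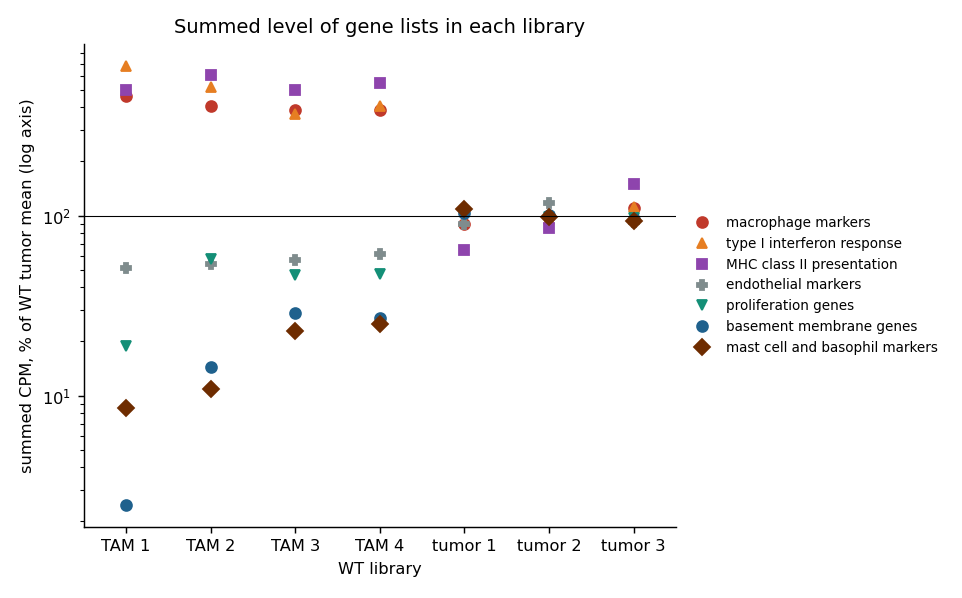
Summed CPM of 7 gene lists in each WT library as a percent of the mean of the 3 whole tumors (log axis, the line marks 100%). Macrophage, interferon and MHC class II lists lie above 300% in all 4 TAM libraries; basement membrane genes are lowest in TAM 1 at 2.47% and reach 26.9% to 28.7% in TAM 3 and 4.

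Leukocytes other than macrophages differed in how far they were depleted. Of 9 neutrophil markers, 5 were lower and none higher (median −3.14). The summed level of the list was 277 to 511 CPM in TAM and 449 to 713 CPM in the tumors. Mmp9, which macrophages also express, was most of that sum in TAM 2 to 4 but not in TAM 1 or the tumors. S100a9, a subunit of the neutrophil protein calprotectin, had the most negative difference of all genes ranked, with 2.15, 0.419, 1.38 and 2.47 CPM in TAM against 131, 202 and 158 CPM in the tumors (102-fold lower). S100a8, its partner, stood at 6.75, 0.928, 2.68 and 2.27 against 71.6, 103 and 73.8 CPM, and Hdc, which makes histamine, at 2.79, 0.988, 1.38 and 1.83 against 28.5, 48.4 and 39.1 CPM. Retnlg was at 0.0582, 0, 0.0602 and 0.118 CPM in TAM, near the level of 3 reads, and at 4.53 to 7.96 CPM in the tumors, where alone it reached the minimum level. Mmp9 had no call at 116, 447, 377 and 347 against 137, 228 and 67.5 CPM and was called higher without TAM 1. Of 6 mast cell and basophil genes, 5 were lower (median −3.09) and their sum was 4.51 to 13.2 CPM in TAM against 49.2 to 57.2 CPM in the tumors, among them the mast cell proteases Cpa3 (0 to 0.530 against 4.70 to 7.41 CPM) and Mcpt4 (0 to 0.736 against 5.83 to 7.52 CPM). All 3 considered erythroid genes were lower. The haemoglobin genes Hba-a2 and Hbb-bs stood at 0.437 to 1.44 and 0.378 to 1.94 CPM in TAM. The tumors differed widely in them, at 166, 115 and 24.4 CPM for Hba-a2 and 177, 130.1 and 20.05 CPM for Hbb-bs, and tumor 3 was lowest. Reads of the near-identical Hba-a1 and Hba-a2 may have been divided between them.

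T cell genes were low in both kinds of sample. None of 9 considered T cell markers was called, and Cd3e, Cd8a, Cd8b1 and Zap70 did not reach 0.5 CPM in 3 of the 7 libraries. Cd3d stood at 0.582, 0.389, 0.812 and 0.736 against 0.733, 0.954 and 1.38 CPM, and Cd4, which some macrophages express, at 0.728, 0.838, 1.08 and 1.53 against 0.807, 1.65 and 2.07 CPM; the groups overlapped for both. The summed level of T cell markers was 5.85 to 13.9 CPM in TAM and 8.69 to 22.4 CPM in the tumors. Of 7 cytotoxic and NK cell genes, Klrk1, which encodes the receptor NKG2D, was higher (16.8, 11.97, 9.56 and 11.6 against 1.94, 2.97 and 4.97 CPM), and Gzma, Gzmb and Prf1, which encode the killing granule proteins, were lower. Those 3 calls were lost in several settings, among them pseudocount 1 and median-of-ratios, TMM and deposited scaling, and Gzma stood at only 0.329 to 1.77 against 1.94 to 4.20 CPM. Of 7 B cell genes 2 were higher and 1 lower. Blnk, an adaptor of the B cell receptor that macrophages also use, was 3.998-fold higher, while Ms4a1, which encodes CD20, stood at 1.02 to 1.31 against 0.660 to 0.954 CPM. Pax5, the B cell master regulator, was lower (0.0873, 0.449, 1.05 and 0.707 against 7.003, 7.12 and 7.25 CPM).

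Genes of cell division were lower in TAM. Of 24 proliferation genes, 22 were lower and none higher (median −1.36), and the remaining 2, Mki67 and Pcna, had log2 differences of −0.83 and −0.78; Mki67 was called lower without TAM 2. Top2a, the topoisomerase of dividing cells, stood at 45.99, 209, 142 and 146 against 476, 439.6 and 440.2 CPM, and Cdc20, which activates the anaphase-promoting complex, at 6.35, 35.1, 29.2 and 31.1 against 107, 108 and 97.6 CPM. TAM 1 was lowest in both, and the other 3 TAM libraries lay closer together. The summed level of the list was 18.9% of the tumor mean in TAM 1 and 46.6% to 57.1% in TAM 2 to 4. Without TAM 1, 10 genes were lower by the rule, and under median-of-ratios, TMM and deposited scaling 17, 16 and 15 were. Cytosolic ribosomal protein genes had a median of −0.94, with 7 of 18 lower and all 18 differences negative. Only 2 or 3 of the 7 kept the call under the other 3 scalings, and without TAM 1 there were 4. Rpl13, of the large subunit, stood at 391, 345, 508 and 517 against 1455, 1400.2 and 1431 CPM.

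Nuclear-encoded metabolic genes stayed near the median of all genes. None of 20 nuclear-encoded genes of oxidative phosphorylation was called (median −0.28), and of 21 glycolysis and hypoxia genes 2 were higher and 2 lower (median −0.25). Both medians change sign under some of the alternatives. Among the 13 mitochondrial genes, ND1, ND5 and ND6 were higher, with log2 differences of 1.03, 2.06 and 2.06 (SE 0.46, 0.46 and 0.42), and none was lower. ND1 stood at 1483, 1610, 4169 and 5180 against 1320, 1363 and 1262 CPM, so TAM 1 and 2 exceeded the tumors by little. ND5 and ND6 stood at 1044 to 3707 and 373 to 1212 CPM in TAM against 407 to 517 and 149 to 164 CPM, also highest in TAM 3 and 4. These mitochondrial genes were not among those followed singly over the alternatives. Slc16a3, a lactate exporter, was 3.22-fold higher, with 539, 390.1, 333 and 312 against 109, 129 and 128 CPM. Egln3 and Ndrg1, both induced by hypoxia, were lower, at 51.1 to 102 and 81.5 to 127 CPM in TAM against 199 to 228 and 234 to 255 CPM, and Ndrg1 lost its call under TMM and deposited scaling. Of 14 angiogenic factors, Pdgfb, which recruits pericytes, was higher (150.3, 208, 194 and 202 against 27.2, 33.7 and 24.6 CPM), and Vegfb, Vegfc and Adm were lower. Of all considered genes 21% were lower, near the share on this list. Adm, which encodes adrenomedullin, stood at 2.82, 4.79, 15.6 and 11.8 against 101, 101 and 84.8 CPM. Vegfa, the main vessel growth factor, stood at 426, 85.9, 108 and 76.6 CPM in TAM and 144, 175 and 174 CPM in the tumors; TAM 1 was above every tumor and the others below. Thbs1, which encodes the angiogenesis inhibitor thrombospondin 1, had 4563, 932, 782 and 529 against 712, 1099 and 1072 CPM; TAM 1 was above every tumor, TAM 2 and 3 lay within their range and TAM 4 was below. Of 13 matrix metalloproteinases and their inhibitors, Mmp2, Mmp11, Timp1 and Timp3 were lower and none higher, where 21% of all considered genes were lower. Timp1 lost the call under the other 3 scalings and without TAM 2 or tumor 3. Mmp11 stood at 0.495, 3.80, 6.92 and 8.13 against 47.7, 48.9 and 46.1 CPM. Mmp12, the macrophage elastase, had no call at 322, 119, 228 and 170.1 against 152, 132 and 199 CPM.

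Genes that respond quickly to handling were examined because the TAM, unlike the tumor pieces, passed through a cell suspension and a sort. Of 20 immediate-early and stress genes, 3 were lower and none higher (median −0.04, of either sign under other settings). Over all considered genes 21% were lower and 12.2% higher, so the share of lower genes on this list was below that of all genes. Fos stood at 1149, 1217, 681 and 806 against 360.1, 502 and 612 CPM, above every tumor in all 4 libraries, with a log2 difference of 0.96 (SE 0.30) that passed 2-fold under the other 3 scalings. Egr1, at 84.9, 119, 94.3 and 108 against 113, 218 and 191 CPM, overlapped between the groups but was called lower without tumor 1. The lower genes were Egr3, Hsp90aa1 and Atf3, with log2 differences of −1.58, −1.22 and −1.14. Under the other 3 scalings Hsp90aa1 (−0.99, −0.94 and −0.92) and Atf3 (−0.92, −0.87 and −0.84) lost the call, which Atf3 also lost without TAM 4 or tumor 3, so that 1 gene was lower and 1 or 2 were higher. Hspa1a, the inducible heat shock protein gene, had a log2 difference of 1.11 (SE 0.55) and overlapped too, with TAM at 165, 342, 121 and 86.8 CPM; without TAM 4 or tumor 3 it was called higher. The part that dissociation played in other genes was not tested. Of 11 broadly expressed reference genes only Actb was called, at 10273, 10854, 8329.6 and 7627 against 3673, 3678 and 3854 CPM (2.48-fold higher). Ppia, which encodes a cyclophilin, had the most negative log2 difference of the list, −0.62.

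The remaining genes of the ranking are given here without grouping by function. Cd300e, an activating receptor of monocytes, stood at 19.4, 34.3, 33.7 and 32.8 CPM in TAM against 1.50, 1.61 and 0.652 CPM in the tumors (23.9-fold higher), and was lowest in TAM 1. Igsf9, of the immunoglobulin superfamily, varied little, with 56.1, 58.3, 51.9 and 50.3 against 3.41, 3.16 and 3.95 CPM. Pilrb1, an activating receptor of the PILR family, Ms4a4c, Pydc4, Phf11b, Gm5431 and Gm4070 were 12.5-fold, 13.6-fold, 18.1-fold, 13.3-fold, 17.7-fold and 10.6-fold higher. On the lower side, G0s2, which encodes an inhibitor of triglyceride lipase, stood at 0.233, 0.0599, 0.150 and 0.324 against 20.9, 33.6 and 29.5 CPM, below 0.5 CPM in every TAM library. Syt13, a synaptotagmin, and Cdh13, which encodes T-cadherin, stood at 0.670, 5.15, 11.6 and 14.5 and 0.320, 1.47, 4.36 and 3.33 CPM in TAM against 114 to 127 and 40.9 to 44.1 CPM. Sparcl1, Ngef and Gm21451 were 22.6-fold, 25.2-fold and 15.6-fold lower. In all 6 of these lower genes except G0s2, TAM 1 was lowest.

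The same rule was applied to the p110g-/- libraries, 4 of TAM and 3 of whole tumor, none of which entered the comparison above. Of 12652 genes considered there, 1321 (10.4%) were higher and 2924 (23.1%) lower, 33.6% in all. Of the genes called higher in WT, 1185 (77.4%) were also called higher in p110g-/-, which is 89.7% of those higher there. Of the genes called lower in WT, 2435 (92.0%) were called lower in p110g-/-, 83.3% of those lower there. A single gene was called in opposite directions: Ifi44, an interferon-induced gene, with a log2 difference of 1.50 in WT and −1.56 in p110g-/-. The macrophage marker list had 22 higher genes and a median of 2.08 in p110g-/-, beside 20 and 2.39 in WT. The type I interferon list had 6 higher and 1 lower gene and a median of 0.66 in p110g-/-, beside 17, none and 2.66 in WT. Irf7 had a log2 difference of 1.54 there and 3.89 in WT, and Ifit1 0.65 and 3.10. The difference between the genotypes in these contrasts was not tested.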

How the data were processed

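RNA had been extracted (RNeasy) and sequenced on an Illumina HiSeq per the labels' protocols. Bowtie2, DESeq and build mm9 are named in the submitters' processing notes, with no role or order; versions, gene counting, strand handling and gene filters are not stated there or in the labels. The deposited values, whole numbers in separate TAM and tumor tables, were treated as a score: their spacing is that of gene counts scaled by 1 factor per library and rounded, but how the authors normalized them is not stated. An unexplained value from 0 to 1 per gene, of another kind and also deposited by the authors, was not used.

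The tables were joined on gene identifier (12924 genes, 12840 identifiers found in the RefSeq gene table; 21 symbols that a spreadsheet had turned into dates were restored from the identifier). Each library was divided by its total to give CPM, which removes a single factor per library; a correction by gene, if the authors made one, would remain in the values and alter the folds. Reads per library were estimated from the spacing of the deposited values. Calls needed no overlap of the groups and a 2-fold difference of log2(CPM + 0.5) among genes of at least 0.5 CPM in 3 libraries. Standard errors come from the variances of both groups. The rule and its code were tested on simulated data. Alternatives covered scaling, pseudocount, filter, size of difference and left-out libraries, with limma on log2(CPM + 0.5) (with trend and Benjamini-Hochberg adjustment) added after the values were seen.

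Genes named were on one of 43 lists or among the 20 largest differences in either direction. The latter needed a mean of at least 20 CPM in the higher group. The mitochondrial genes ND1, ND5 and ND6 were named after their values had been seen. The lists held 530 distinct genes with values, and many of them are counted but not reported by name here. The comparison and the lists were chosen with earlier results of these data known, so the counts by list are descriptions and carry no test. The limma fit gives a gene an adjusted p for the 7 libraries; the spread may be technical. Promoters came from RefSeq GRCm38.p6. Python 3.11.15, numpy 2.4.6, pandas 2.3.3, matplotlib 3.10.9, R 4.3.3 and limma 3.58.1 were used.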

Additional observations from a re-analysis of the deposited data

Results flagged for a closer look

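In 261 quantities, the 4 WT TAM libraries were searched for a single library far from the other 3, by Dixon's criterion (gap over range above 0.829). The quantities were the levels of the genes named above other than mitochondrial genes, list sums and library totals. Because the genes were chosen with earlier results known, the share flagged cannot be set against a chance rate. In all, 28 (10.7%) were found. Of these, 21 were high in TAM 1 and 4 were low in TAM 1; the quantities are not independent.

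Among mediators and regulators, TAM 1 was high in Arg1 (4661 CPM, others 806 to 1086), Ccl6 (1754, others 419.5 to 476), Ccl3 (46.7, others 9.46 to 12.9), Cxcl2 (377, others 74.3 to 93.0), Il1b (309, others 184 to 194), Il6 (2.10, others 0.180 to 0.412) and Il18 (25.6, others 12.8 to 14.5). The same held for Vegfa (426, others 76.6 to 108), Thbs1 (4563, others 529 to 932), Spp1 (2134, others 841 to 1042), Cebpb (252.6, others 86.5 to 113), Id2 (170.3, others 69.2 to 79.7) and the costimulatory gene Cd80 (75.5, others 33.1 to 36.9). Monocyte genes high in TAM 1 were Ly6c2 (41.2, others 11.9 to 14.2), Chil3 (40.9, others 3.13 to 7.75) and Ifitm6 (42.9, others 9.72 to 12.0). Ms4a4c stood at 215.5 CPM (others 129.8 to 139.5) and the interferon gene Oas2 at 149 CPM (others 64.2 to 75.8). Low in TAM 1 were Cd300e (19.4, others 32.8 to 34.3) and Fcgrt (53.4, others 84.8 to 89.9).

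List sums in TAM 1 were high for inflammatory chemokines (5636 CPM, others 2825 to 3285), arginine metabolism (7883, others 2912 to 3428) and angiogenic factors (5395, others 1264 to 1752). They were low for pericyte and smooth muscle markers (19.6, others 102 to 115) and for reference genes (22200.1, others 24775 to 25264). TAM 2 was high in Ciita (90.9 CPM, others 61.2 to 63.2), Erap1 (102 CPM, others 76.7 to 79.6) and Spi1 (462 CPM, others 415 to 421).

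For Ifi44 and Bst2, both on the interferon list, every WT TAM library was above every WT tumor and every p110g-/- TAM library below every p110g-/- tumor. The log2 difference was 1.50 in WT and −1.56 in p110g-/- for Ifi44, and 0.75 and −0.39 for Bst2. The difference between the genotypes was not tested.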

How the results depend on the processing

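The number of genes higher and lower in TAM stayed within 1.5 times 1531 and 2648 in all settings tried except changes to the size required: at least 4-fold gave 623 and 953, and no minimum size 3385 and 6089. The 1531 higher genes all stayed higher under the 3 other scalings, whereas 78.5%, 75.1% and 73.6% of the lower genes stayed lower under median-of-ratios, TMM and deposited scaling. With a single library left out, 1476 to 1616 genes were higher and 2336 to 2800 lower; without TAM 1 and 2 there were 1384 and 2151, and without TAM 3 and 4, 1712 and 3065. No called gene turned direction. Of 645 list medians recomputed under alternatives 71 moved by more than the spread over libraries, and of 3225 values of named genes 226 did. The medians for arginine metabolism, glycolysis, oxidative phosphorylation and immediate-early genes changed sign in 1, 2, 1 and 7 of 15 alternatives. Y-linked Ddx3y, Eif2s3y and Uty are above 0.5 CPM in TAM alone, and G0s2, Hbb-bt, Cd55, Csf3 and Retnlg in tumors alone, so these drop out when too few such libraries are left. Whether the replicate numbers pair TAM and tumor libraries is not stated. Over 12599 genes, deviations of same-numbered TAM and tumor libraries correlated at −0.281, 0.057 and −0.234. For differently numbered libraries the values were −0.161 to 0.280. They cannot decide on pairing, because TAM 1 differed from TAM 3 and 4 in many genes, and a paired tumor piece need not share that difference. A limma fit with the replicate number as a block over the 6 libraries numbered 1 to 3 gave 1587 higher and 2724 lower genes (adjusted p under 0.05 and at least 2-fold), and without the block 1608 and 2759. limma over all 7 gave 1537 and 2612. Depth limits genes near 3 reads, 0.0673 to 0.112 CPM, where a fold is not interpretable.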
